A study of Mus musculus with 24 samples.

Results

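The 10 macrophage genes described here are Lyz2, Lgals3, Retnla, Fcer1g, Cd14, Cd163, Clec10a, Clec4b1, Timd4 and Cd68. They were taken by symbol from the array annotation, and a gene with several probes is represented by the probe with the highest mean over all 24 arrays. Probes were annotated for 9 of the 10, among 16593 named genes in all. Cd68 had none, so the values below are those of 9 genes. RNA was measured in gonadal adipose tissue, aorta, liver and kidney, with 3 libraries per genotype and tissue. Glo1+/- mice carried a heterozygous knockout of Glo1, the gene of the methylglyoxal-detoxifying enzyme glyoxalase 1, in a re-derived line on the C57BL/6J background. WT mice were C57BL/6J. Per the labels, both genotypes were 36 weeks old, female and fed standard chow. The labels do not say whether libraries with the same number came from the same animal in different tissues, and where nothing says that replicates were separate animals, p-values measure only the spread between these libraries.

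Macrophages are resident phagocytes of every tissue named here. In adipose tissue they surround dying adipocytes and take up lipid, in liver they line the sinusoids as Kupffer cells, and in kidney and aorta they lie in the interstitium and the adventitia. The genes cover secreted and lysosomal products (Lyz2, Lgals3, Retnla and Cd68), an immune receptor signalling chain (Fcer1g), and surface receptors for bacterial lipid (Cd14), haemoglobin (Cd163) and dying cells (Timd4), together with the C-type lectins Clec10a and Clec4b1. Several are not restricted to macrophages: Lgals3 is also made by epithelium, and Fcer1g and Cd14 by other myeloid cells.

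Promoter windows of 250 bases before the annotated start are shown for 3 genes: Lyz2, a standard marker of the lineage, Retnla, whose level differed most between tissues, and Clec4b1, whose genotype difference had the smallest p in adipose tissue. The sequences come from RefSeq, build GRCm38.p6, and are written 5′ to 3′ along the gene. They lie at chr10:117282273-117282522 on the minus strand for Lyz2, chr16:48842359-48842608 on the plus strand for Retnla and chr6:123049712-123049961 on the plus strand for Clec4b1. Capitals mark the letters GAGGAA, a core of sites for the myeloid factor PU.1, or their reverse TTCCTC.
Lyz2: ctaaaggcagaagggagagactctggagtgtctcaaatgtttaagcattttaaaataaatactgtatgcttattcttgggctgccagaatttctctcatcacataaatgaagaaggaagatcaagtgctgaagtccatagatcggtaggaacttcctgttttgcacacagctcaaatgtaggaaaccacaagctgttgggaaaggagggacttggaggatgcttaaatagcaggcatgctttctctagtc
Retnla: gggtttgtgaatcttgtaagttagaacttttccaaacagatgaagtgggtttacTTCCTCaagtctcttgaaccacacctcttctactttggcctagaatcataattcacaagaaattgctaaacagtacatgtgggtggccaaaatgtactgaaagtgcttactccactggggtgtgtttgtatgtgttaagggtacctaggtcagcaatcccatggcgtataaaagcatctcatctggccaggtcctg
Clec4b1: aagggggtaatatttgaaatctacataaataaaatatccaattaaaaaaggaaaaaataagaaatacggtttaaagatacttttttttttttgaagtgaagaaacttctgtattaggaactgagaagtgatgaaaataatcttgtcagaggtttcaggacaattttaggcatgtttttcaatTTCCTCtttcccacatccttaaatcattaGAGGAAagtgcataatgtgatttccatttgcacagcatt
The motif stood at base -196 from the start in Retnla and at bases -68 and -39 in Clec4b1, and was not in the Lyz2 window. It was in 3 of the 8 windows read for the 10 genes, the third being Cd68 at base -225, and in 23.3% of 32851 windows of the same length. Clec10a and Cd14 were not among the 8, Cd14 because its chromosome was skipped for the 10 genes. That chromosome was not skipped for the 32851 windows. A match describes the letters only.

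Libraries that stand apart or go against their labels are named here first. Glo1, read by 1 probe, was lower in every Glo1+/- library than in every WT library of adipose tissue, liver and kidney, whereas in aorta it read 10.61, 11.08 and 11.90 in Glo1+/- against 12.17, 12.08 and 11.22 in WT, so that library 3 of each genotype overlapped the other group. Single defining genes matched the tissue labels, with Alb at 8.96 to 9.86 in liver, Umod at 14.36 to 14.62 in kidney and Myh11 at 11.12 to 12.15 in 5 aorta libraries. Other marker genes crossed tissues. The median of 6 brown adipocyte genes was 12.58 to 13.48 in the same 5 aorta libraries, against 8.26 to 8.41 in adipose tissue. How much of the aorta levels below came from fat around the vessel was not tested. The hepatocyte gene Apoa2 read 14.92, 14.79 and 12.85 in WT adipose tissue and 14.30, 11.87 and 9.45 in Glo1+/- adipose tissue, against 14.86 to 14.97 in liver. It also read 13.17 in WT kidney 1, against 9.59 to 10.32 in the other kidney libraries. In Glo1+/- aorta 3 it read 12.92, against 8.56 to 10.75 in the other aorta libraries. The kidney tubule gene Kap read 12.89 in WT adipose 1 and 13.78 in Glo1+/- adipose 1. The epididymis gene Lcn8 read 14.83 in Glo1+/- adipose 3. The T cell gene Cd3d read 12.02 in WT aorta 3, and the skeletal muscle gene Acta1 14.16 in WT aorta 2. All 24 libraries are labelled female, but the 2 probes of Xist read 8.03 to 8.25 throughout and Eif2s3y, a Y-linked gene, read 10.33 to 11.28. Glo1+/- aorta library 3 correlated across probes at 0.969 to 0.995 with the adipose libraries and at 0.924 to 0.934 with the other 5 aorta libraries; aorta values are therefore given with and without it. On the slides, all adipose libraries shared slide 1 with WT liver 1 and 2, and all aorta libraries shared slide 3 with Glo1+/- kidney 2 and 3, so tissue and slide are largely joined. Values are on the deposited log2 scale, whose floor lies near 8. A mean under 8.5 is called close to the floor. A probe was called at an adjusted p under 0.05 in limma, with adjustment over all 25697 probes, and all adjusted p-values below are limma's.

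Across tissues, 8 of the 9 genes were highest in adipose tissue, and Timd4 was close to the floor in all 4. Against liver, 8 of 9 were called higher in adipose tissue, where 21.4% of all probes were. Against kidney all 9 were called higher, beside 19.4% of probes, and against aorta 8 of 9, beside 14.2%. Tissue accounted for 68.5% (Clec4b1) to 95.9% (Retnla) of a gene's sum of squares over 24 libraries, and for 72.8% (Timd4) to 99.3% (Retnla) over 23 without Glo1+/- aorta library 3. In bulk tissue, fewer cells of a type and less RNA per cell cannot be told apart, and this holds for every level below.

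**Figure D1:**
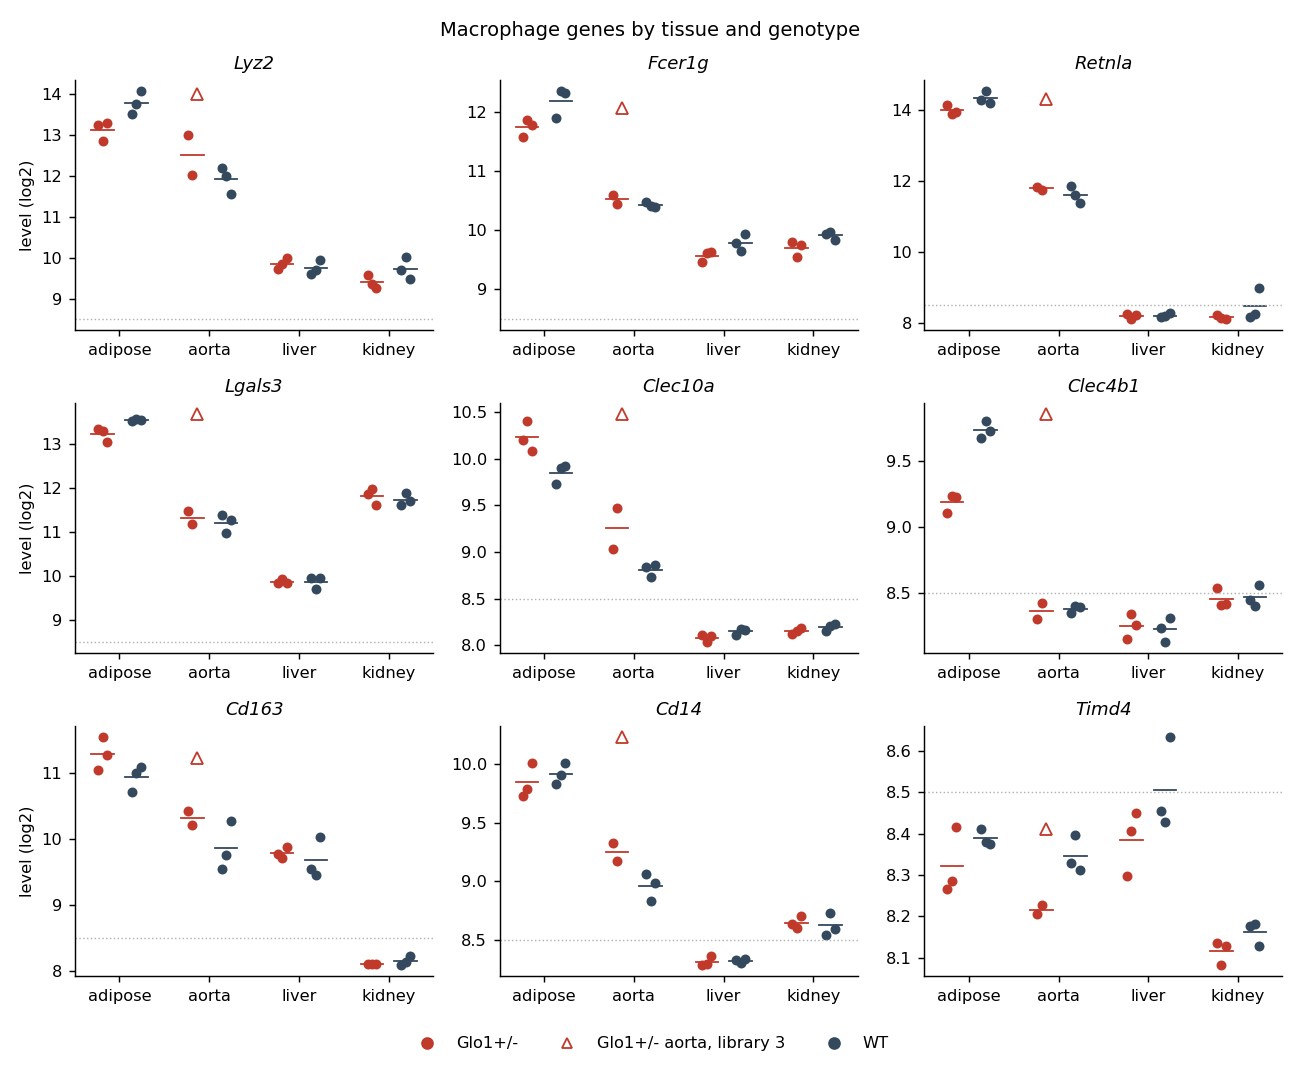
Levels of the 9 measured macrophage genes (log2, 1 panel per gene) in adipose tissue, aorta, liver and kidney, with Glo1+/- left of WT. Dots are libraries, lines are group means, the open triangle is Glo1+/- aorta library 3, which the Glo1+/- aorta mean leaves out, and the dotted line marks 8.5. In 8 of the 9 panels the adipose means stand highest, and the triangle stands above the other aorta dots in all 9.

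Among the secreted and lysosomal products, Lyz2, which encodes the macrophage lysozyme, read 12.85, 13.42 and 14.08 as lowest, median and highest of the 6 adipose libraries. In aorta it read 11.57, 12.02 and 13.00 over 5 libraries, in liver 9.60, 9.79 and 9.98, and in kidney 9.25, 9.53 and 10.02. The adipose and aorta libraries overlapped, liver and kidney overlapped each other, and every adipose and aorta library lay above every liver and kidney library. Adipose minus liver was 3.66 ± 0.22 (adjusted p = 4.75e-12), and adipose minus aorta 0.99 ± 0.22 (adjusted p = 0.00141), or 1.25 ± 0.16 (adjusted p = 1.63e-06) without Glo1+/- aorta library 3. Liver minus kidney, 0.24 ± 0.22 (adjusted p = 0.48), did not pass the test.

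Lgals3, the galactose-binding lectin galectin-3, read 13.05, 13.44 and 13.59 in adipose tissue and 10.97, 11.28 and 11.48 in 5 aorta libraries. It read 9.70, 9.89 and 9.96 in liver and 11.62, 11.78 and 11.98 in kidney, so kidney came second and not last in this gene. Liver minus kidney was -1.91 ± 0.26 (adjusted p = 2.77e-06). Aorta minus kidney was -0.12 ± 0.26 (adjusted p = 0.806) over all libraries and -0.51 ± 0.09 (adjusted p = 8.24e-05) without Glo1+/- aorta library 3, so kidney was called higher only without that library, beside 16.9% of probes.

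Retnla, the secreted resistin-like alpha associated with alternatively activated macrophages, read 13.90, 14.17 and 14.53 in adipose tissue and 11.38, 11.75 and 11.86 in 5 aorta libraries. In liver it stayed at 8.12 to 8.27 and in kidney at 8.11 to 8.99, with kidney above 8.5 in WT library 3 alone. Adipose minus liver was 5.97 ± 0.28 (adjusted p = 1.01e-13) and adipose minus aorta 2.05 ± 0.28 (adjusted p = 1.76e-05), the widest of the 9 genes in both. The second was 2.47 ± 0.12 (adjusted p = 3.15e-13) without Glo1+/- aorta library 3. Adiponectin (Adipoq), a product of adipocytes, was high in both of these tissues, at 14.31 to 14.59 in adipose tissue and 13.98 to 14.63 in aorta, and at most 8.22 in liver. In kidney Adipoq read 8.11, 9.48 and 10.57 in WT libraries 1, 2 and 3, where Retnla read 8.15, 8.27 and 8.99. How much of the Retnla signal came from adipocyte-bearing tissue around the vessel or the kidney was not tested.

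**Figure D2:**
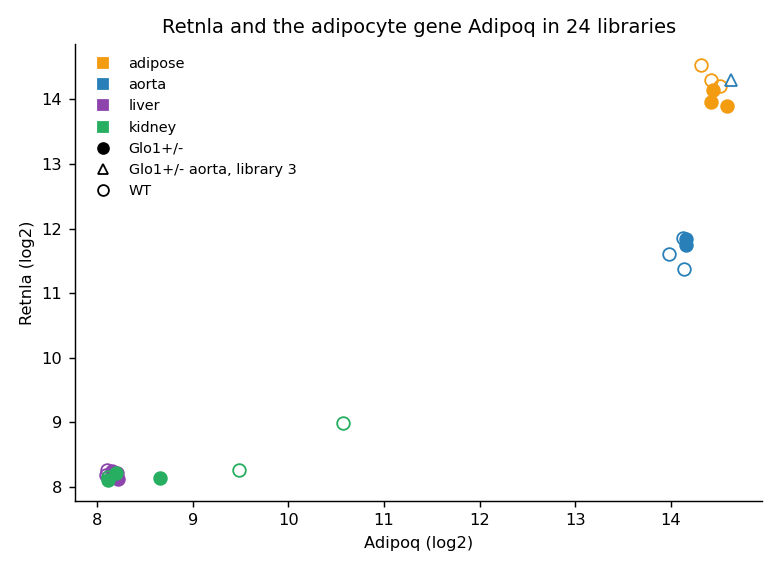
Retnla level against Adipoq level (both log2) in all 24 libraries, by tissue and genotype. Libraries low in Adipoq are low in Retnla, WT kidney 3 lies apart from the other kidney libraries on both axes, and Glo1+/- aorta library 3 lies among the adipose libraries.

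Among the receptors, Fcer1g, the signalling chain shared by activating Fc receptors, read 11.58, 11.88 and 12.35 in adipose tissue and 10.40, 10.44 and 10.60 in 5 aorta libraries. It lay at 9.47 to 9.94 in liver and 9.55 to 9.96 in kidney, which overlapped. Adipose minus aorta was 1.23 ± 0.18 (adjusted p = 3e-05), or 1.49 ± 0.09 (adjusted p = 6.62e-12) without Glo1+/- aorta library 3. Cd14, the lipopolysaccharide co-receptor, read 9.73, 9.87 and 10.01 in adipose tissue, 8.83 to 9.33 in 5 aorta libraries, 8.54 to 8.73 in kidney and 8.29 to 8.37, close to the floor, in liver. Its difference of liver minus kidney was -0.32 ± 0.12 (adjusted p = 0.0443), and this call was lost with quantile normalization (adjusted p = 0.0593) and without a trend in the variance (adjusted p = 0.054).

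Cd163, which takes up haemoglobin bound to haptoglobin, was ordered adipose tissue, aorta, liver and then kidney by its means. It read 10.71, 11.07 and 11.55 in adipose tissue, 9.54, 10.21 and 10.42 in 5 aorta libraries and 9.45, 9.74 and 10.03 in liver, with aorta and liver overlapping. In kidney it was close to the floor in all 6 libraries, at 8.09 to 8.23. Liver minus kidney was 1.60 ± 0.15 (adjusted p = 1.03e-08), while aorta minus liver was 0.51 ± 0.15 (adjusted p = 0.00924), or 0.36 ± 0.12 (adjusted p = 0.024) without Glo1+/- aorta library 3.

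Clec10a, a galactose-binding lectin of macrophages and dendritic cells, read 9.73, 10.00 and 10.41 in adipose tissue and 8.73 to 9.47 in 5 aorta libraries, and was close to the floor in liver and kidney. Clec4b1, a lectin receptor of myeloid cells in mice, read 9.10, 9.46 and 9.81 in adipose tissue and was close to the floor in the other tissues, apart from a value of 9.86 in Glo1+/- aorta library 3. Its adipose minus kidney difference was 1.00 ± 0.16 (adjusted p = 2.82e-05). Timd4, the phosphatidylserine receptor of long-lived resident macrophages, read 8.30 to 8.63 in liver, 8.27 to 8.42 in adipose tissue and 8.08 to 8.18 in kidney. Liver minus kidney was 0.31 ± 0.04 (adjusted p = 3.78e-06), and only 1 of the 24 libraries, WT liver 3, read above 8.5.

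Aorta exceeded liver in 7 of the 9 genes, beside 21.9% of probes, and lay below it in Timd4, beside 16.5%. It exceeded kidney in 7 of 9, beside 19.3%, the exceptions being Lgals3 and Clec4b1. Liver exceeded kidney in Cd163 and Timd4, beside 15.8% of probes, and lay below it in Lgals3 and Cd14, beside 17.4%. Without Glo1+/- aorta library 3 the corresponding shares of all probes were 22.8% for adipose above liver, 20.9% for adipose above kidney, 17.3% for adipose above aorta, 23% for aorta above liver, 17.1% for liver above aorta and 20.8% for aorta above kidney. They were 17.3% for liver above kidney and 19.2% for kidney above liver, where Clec4b1 joined Lgals3 and Cd14. Liver minus kidney was -0.23 ± 0.05 (adjusted p = 0.00104) in Clec4b1.

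With slide as a block, chosen after seeing the data, all 8 calls of adipose above aorta were lost (differences 0.66 to 2.04, adjusted p = 0.206 to 0.557), where 0.0895% of probes were called in that direction. With Glo1+/- aorta library 3 left out as well, 7 of the 8 were regained, beside 5.16% of probes, and Lyz2 was not (adjusted p = 0.117). Adipose above liver kept its 8 calls in both versions, with differences of 1.32 to 6.03, beside 15.1% of probes with all libraries and 17.4% without that library. Adipose above kidney was lost in Lgals3 (1.72, adjusted p = 0.0926) and Clec4b1 (1.09, adjusted p = 0.0874) over all libraries, beside 8.98% of probes called, and in neither without that library, beside 12.5%. Both differences were no smaller than without the block. Liver below kidney was lost in Cd14 over all libraries (adjusted p = 0.264). Aorta above liver, called in 8% of probes, was lost in Fcer1g (1.13, adjusted p = 0.113), Lgals3 (1.81, adjusted p = 0.0783), Clec10a (1.07, adjusted p = 0.0577) and Cd163 (0.33, adjusted p = 0.644), and the Timd4 call of liver above aorta was lost as well (adjusted p = 0.293). Leaving out Glo1+/- aorta library 3, where 12.6% of probes were called for aorta above liver, Cd163 (0.18, adjusted p = 0.732) and Timd4 (-0.20, adjusted p = 0.092) were still lost. Within slide 1, Retnla read 14.15, 13.90 and 13.95 in Glo1+/- adipose tissue and 14.29, 14.53 and 14.20 in WT adipose tissue, against 8.16 and 8.19 in WT liver 1 and 2. Within slide 3 it read 11.84, 11.75 and 14.30 in Glo1+/- aorta and 11.86, 11.61 and 11.38 in WT aorta, against 8.14 and 8.11 in Glo1+/- kidney 2 and 3.

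Glo1+/- aorta library 3 stood above all 5 other aorta libraries in all 9 genes, as did 27.1% of all probes. Retnla read 14.30 there against a range of 11.38 to 11.86 in the other 5, and Lgals3 read 13.69 against 10.97 to 11.48. The excess over the mean of the other 5 ran from 0.12 in Timd4 to 2.62 in Retnla. Lyz2, Fcer1g, Retnla, Cd163 and Timd4 fell inside the range of the 6 adipose libraries, as did 65.1% of probes, and Lgals3, Clec10a, Clec4b1 and Cd14 lay above it, as did 18.2%. Markers of other cells moved with these genes in that library. Lep, made by white adipocytes, read 14.73 against 9.21 to 11.41 in the other 5, and the median of the white adipocyte list was 12.30 against 10.94 to 11.25. Ucp1 of brown adipocytes read 8.14 against 14.57 to 14.82, and Myh11 of smooth muscle 9.13 against 11.12 to 12.15.

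**Figure D3:**
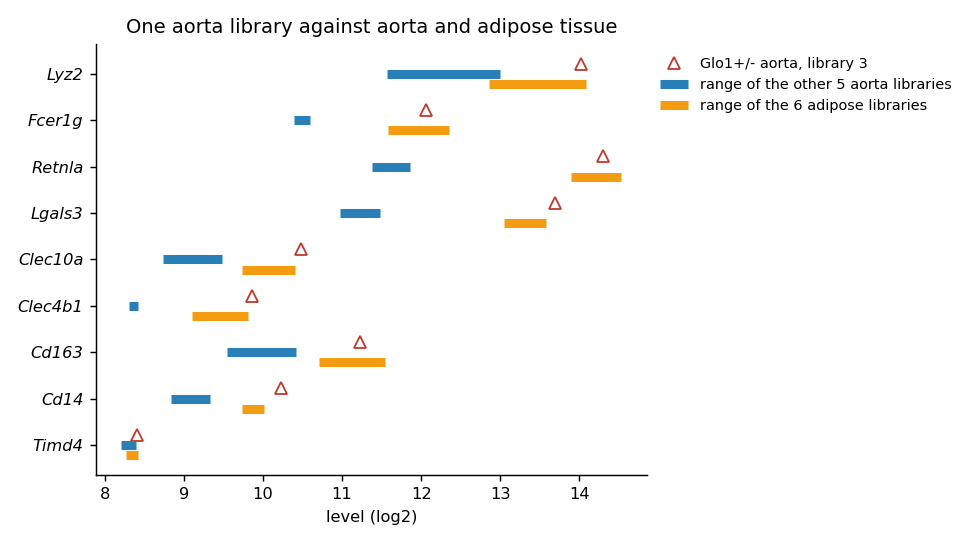
Glo1+/- aorta library 3 (triangle) for the 9 genes on the log2 scale, beside the range of the other 5 aorta libraries and the range of the 6 adipose libraries. The triangle lies above the aorta range in all 9 genes and inside the adipose range in 5.

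Between genotypes, none of the 9 macrophage genes was called in any of the 4 tissues when all libraries were used. In adipose tissue 0 of 9 passed limma's adjusted threshold, as 0.00389% of probes did (1 of 25697), while 6 of 9 had an unadjusted p under 0.05, beside 11.4% of probes. In 5 genes (Lyz2, Fcer1g, Retnla, Lgals3 and Clec4b1) all Glo1+/- libraries lay below all WT libraries, beside 9.48% of probes, and in 1 (Clec10a) all lay above, beside 8.02%. The median difference of the 9 genes was -0.32, and that of all probes 0.00. The genes were chosen with earlier results of these data known. Their counts beside all probes, here and in the other tissues, are therefore description only. Of 37 other macrophage genes, 3 had an unadjusted limma p under 0.05 in adipose tissue, with a median difference of -0.04.

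Lyz2 read 13.25, 12.85 and 13.31 in Glo1+/- adipose tissue against 13.52, 13.77 and 14.08 in WT, with group means of 13.14 ± 0.25 and 13.79 ± 0.28 (SD, n = 3 each). The groups did not overlap, and the difference of -0.65 ± 0.17 (adjusted p = 0.288) did not pass the test. Its second probe read 11.54, 11.44 and 11.59 in Glo1+/- against 11.86, 12.15 and 12.17 in WT and separated the groups in the same direction, with a difference of -0.54 ± 0.12 (adjusted p = 0.26). The third probe was close to the floor, at 8.06 to 8.26. Leaving out 1 library at a time moved the Lyz2 difference between -0.79 and -0.51.

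Clec4b1 read 9.10, 9.24 and 9.23 in Glo1+/- adipose tissue against 9.68, 9.81 and 9.73 in WT. Its difference of -0.55 ± 0.09 (adjusted p = 0.16) had the smallest p of the 9 genes and did not pass the test. The second probe read 8.97, 8.94 and 8.94 in Glo1+/- against 9.55, 9.70 and 9.66 in WT, a difference of -0.69 ± 0.09 (adjusted p = 0.106). The third, near the floor, also separated the groups, with a difference of -0.12 ± 0.04 (adjusted p = 0.349). Probes of Clec4b1 can share sequence with its near-identical neighbour Clec4b2, which had no probe of its own here, probes of Lyz2 with Lyz1 and the Clec10a probe with Mgl2, so the split within these pairs is uncertain.

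**Figure D4:**
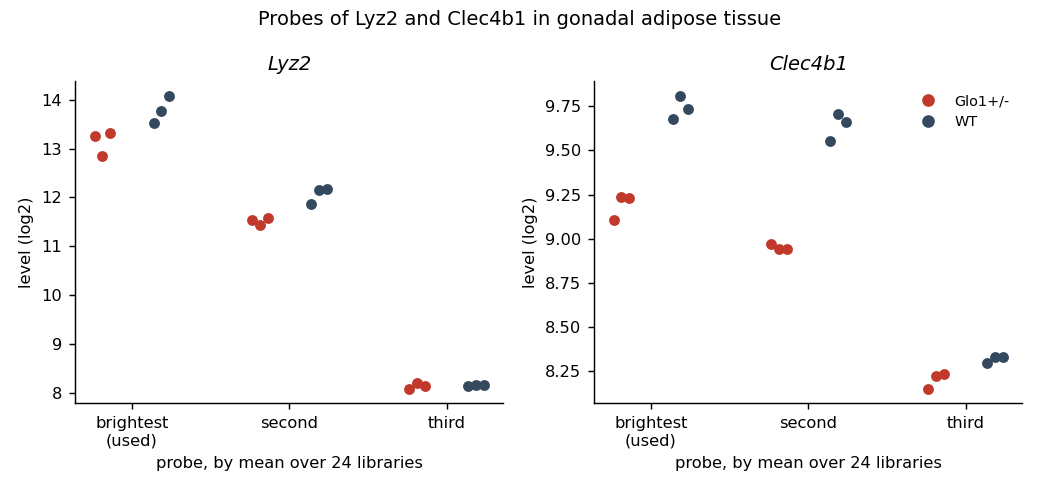
Adipose levels (log2) of the 3 probes of Lyz2 and the 3 probes of Clec4b1, with Glo1+/- left of WT and dots for libraries. In both genes the 2 brighter probes have all Glo1+/- libraries below all WT libraries.

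Retnla read 14.15, 13.90 and 13.95 in Glo1+/- adipose tissue against 14.29, 14.53 and 14.20 in WT, a difference of -0.34 ± 0.10 (adjusted p = 0.342). Lgals3 read 13.35, 13.30 and 13.05 in Glo1+/- against 13.53, 13.59 and 13.55 in WT, a difference of -0.32 ± 0.09 (adjusted p = 0.33). Fcer1g read 11.58, 11.86 and 11.78 in Glo1+/- against 11.90, 12.35 and 12.31 in WT, a difference of -0.45 ± 0.15 (adjusted p = 0.368). In these 3 genes every Glo1+/- library lay below every WT library, and none passed the test.

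A pair of receptors had positive differences that did not pass the test. Clec10a read 10.20, 10.41 and 10.08 in Glo1+/- against 9.73, 9.90 and 9.92 in WT, without overlap, a difference of 0.38 ± 0.12 (adjusted p = 0.356). Cd163 read 11.05, 11.55 and 11.27 in Glo1+/- against 10.71, 11.00 and 11.09 in WT, with overlap, a difference of 0.35 ± 0.16 (adjusted p = 0.463). That difference was 0.22 without Glo1+/- library 2 and 0.47 without Glo1+/- library 1, the ends of its range when libraries were left out in turn. A second Cd163 probe stayed close to the floor in all 24 libraries, at 8.06 to 8.18. Cd14 and Timd4 overlapped, with differences of -0.07 ± 0.11 (adjusted p = 0.843) and -0.07 ± 0.05 (adjusted p = 0.674). The 9 genes thus had differences of both signs within adipose tissue, from -0.65 to 0.38.

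**Figure D5:**
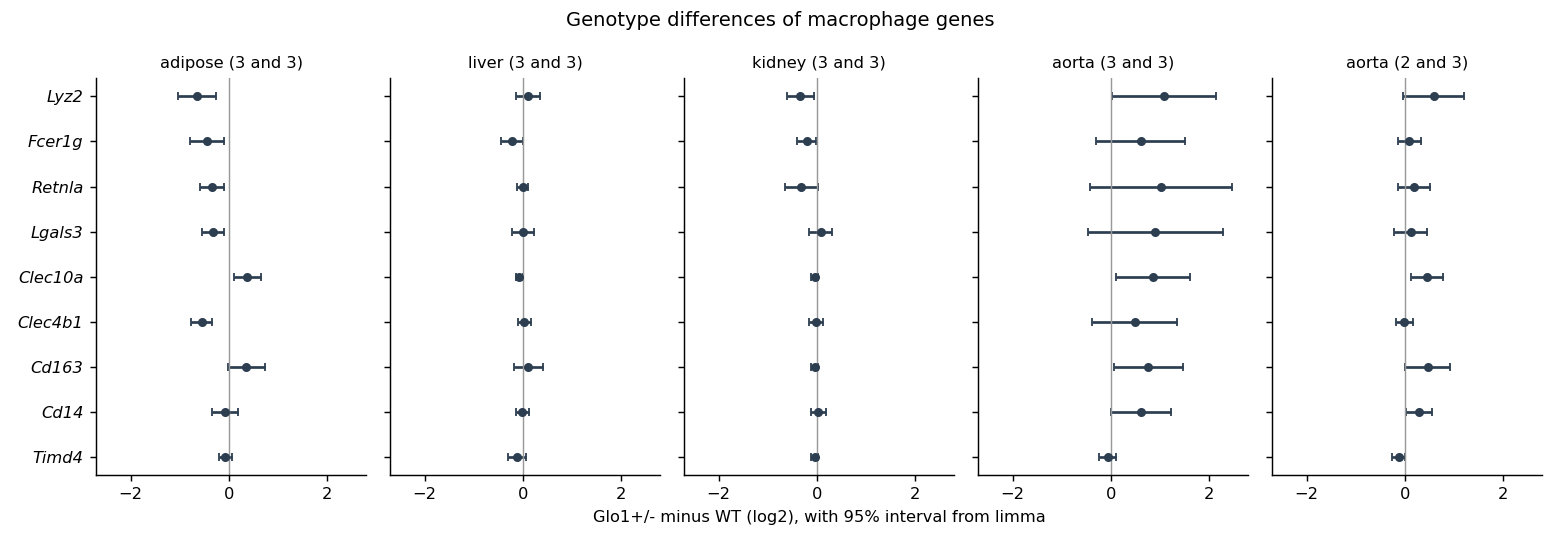
Difference in log2 level, Glo1+/- minus WT, with limma's 95% interval, for the 9 genes in adipose tissue, liver, kidney, aorta with all libraries, and aorta without Glo1+/- library 3. In adipose tissue 6 intervals exclude 0, 5 of them below it and that of Clec10a above it, and no gene passed the adjusted threshold in any panel.

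Markers of other tissues also differed among the 6 adipose libraries. The median of 14 hepatocyte genes was 10.41, 9.23 and 8.29 in Glo1+/- against 12.44, 12.19 and 9.58 in WT. The median of 11 kidney tubule genes was 11.19, 8.14 and 8.29 in Glo1+/- against 9.71, 8.25 and 8.12 in WT, and that of 6 epididymis genes 8.15, 8.16 and 11.50 in Glo1+/- against 8.11, 8.13 and 8.22 in WT. Of 11 monocyte and neutrophil genes, 8 were close to the floor in each genotype, and the summed level ran from 92.8 to 94.1 in Glo1+/- and from 94.3 to 95.0 in WT. Among them S100a8, a neutrophil product, read 10.52, 9.19 and 9.12 in Glo1+/- against 10.11, 10.77 and 11.17 in WT. The mean level of 10 dendritic cell genes was 9.59 to 9.74 in Glo1+/- and 9.61 to 9.66 in WT. The part of these markers in the macrophage gene differences was not tested.

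In liver 0 of 9 genes were called, beside 0.658% of probes, and 1 had an unadjusted p under 0.05, beside 11.6%. Fcer1g read 9.47, 9.62 and 9.63 in Glo1+/- against 9.78, 9.65 and 9.94 in WT without overlap, a difference of -0.22 ± 0.11 (adjusted p = 0.463). On slide 2, which holds 1 WT and 3 Glo1+/- liver libraries, that difference was -0.37. With slide as a block it is the same estimate and no further check, because the other liver libraries are all WT. Clec10a, close to the floor, also had all Glo1+/- libraries below WT, a difference of -0.07 ± 0.03 (adjusted p = 0.409). These 2 of 9 stood beside 9.79% of probes not overlapping and lower, and 0 of 9 beside 7.77% not overlapping and higher. Differences of Lyz2, 0.10 ± 0.12 (adjusted p = 0.804), and Cd163, 0.11 ± 0.14 (adjusted p = 0.82), turned to -0.10 and -0.24 on slide 2. The second Lyz2 probe had a difference of -0.33 ± 0.13 (adjusted p = 0.303) over all 6 libraries, opposite in sign to the first. On slide 2 the lone WT library, like the lone Glo1+/- kidney library of that slide, is assumed to vary as the other group does.

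In kidney 0 of 9 were called, beside 0.381% of probes, and 2 had an unadjusted p under 0.05, beside 9.54%. Lyz2 read 9.58, 9.36 and 9.25 in Glo1+/- against 9.69, 10.02 and 9.48 in WT, a difference of -0.34 ± 0.13 (adjusted p = 0.399), which was -0.16 on slide 2. The second Lyz2 probe differed by only -0.07 ± 0.07 in kidney (adjusted p = 0.798). It read 8.73, 8.83 and 8.74 in Glo1+/- against 8.82, 8.83 and 8.85 in WT. Fcer1g read 9.81, 9.55 and 9.75 in Glo1+/- against 9.94, 9.96 and 9.84 in WT without overlap, a difference of -0.21 ± 0.09 (adjusted p = 0.502), which was -0.10 on slide 2. Fcer1g was the 1 of 9 that lay wholly lower, beside 7.96% of probes, and 0 of 9 lay wholly higher, beside 7.47%. The Retnla difference of -0.31 ± 0.15 (adjusted p = 0.551) ran from -0.47 to -0.05 when libraries were left out in turn and was smallest without WT library 3. Lgals3, the gene highest in kidney after adipose tissue, read 11.86, 11.98 and 11.63 in Glo1+/- against 11.62, 11.90 and 11.71 in WT, with overlap.

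In aorta 0 of 9 were called, as 0% of probes were, and 4 had an unadjusted p under 0.05, beside 3.57%. Clec10a read 9.04, 9.47 and 10.48 in Glo1+/- against 8.83, 8.73 and 8.86 in WT, a difference of 0.85 ± 0.33 (adjusted p = 0.948). Cd14 read 9.33, 9.18 and 10.23 in Glo1+/- against 9.06, 8.83 and 8.99 in WT, a difference of 0.62 ± 0.26 (adjusted p = 0.948). These 2 lay wholly higher, beside 5.61% of probes, and 0 lay wholly lower, beside 4.5%. The median difference was 0.76, with 0.00 over all probes. Leaving out Glo1+/- library 3, the median was 0.18.

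Without Glo1+/- aorta library 3 and with 2 Glo1+/- libraries left, 0 of 9 were called, again beside 0% of probes, and 3 had an unadjusted p under 0.05, beside 7.87%. Clec10a differed by 0.45 ± 0.14 (adjusted p = 0.572), Cd163 by 0.46 ± 0.20 (adjusted p = 0.631) and Cd14 by 0.29 ± 0.11 (adjusted p = 0.617). Clec10a and Cd14 lay wholly higher, beside 13.7% of probes, and Timd4 wholly lower, beside 12.5%, with a difference of -0.13 ± 0.06 (adjusted p = 0.635). Lyz2 differed by 0.58 ± 0.28 (adjusted p = 0.635) and Clec4b1, close to the floor, by -0.01 ± 0.08 (adjusted p = 0.968). Leaving out both aorta libraries numbered 3, a setting chosen after seeing the data, keeps 2 libraries per genotype. There Cd163 differed by 0.67 (adjusted p = 0.0249) and was called, as were 349 of all 25697 probes. WT aorta library 3 also held the T cell gene Cd3d at 12.02, and WT aorta library 2 the skeletal muscle gene Acta1 at 14.16.

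Averaged over the 4 tissues, 0 of 9 genes were called, beside 0.269% of probes, and 3 had an unadjusted p under 0.05, beside 9.95%. Those were Clec10a with 0.28 ± 0.10 (adjusted p = 0.334), Cd163 with 0.30 ± 0.11 (adjusted p = 0.33) and Timd4 with -0.08 ± 0.03 (adjusted p = 0.403). In the 23 libraries that leave out Glo1+/- aorta library 3, 0 of 9 were called beside 1.58% of probes and 5 had an unadjusted p under 0.05 beside 13.7%. Of these, Clec4b1 had -0.14 ± 0.04 (adjusted p = 0.0642), Clec10a 0.18 ± 0.05 (adjusted p = 0.0681) and Fcer1g -0.19 ± 0.06 (adjusted p = 0.103). With slide as a block as well, Timd4, close to the floor in all 4 tissues, was called at -0.12 (adjusted p = 0.0406), beside 1.81% of probes.

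Whether the genotype difference varied between tissues was tested by an interaction. Over all libraries 0 of 9 were called, beside 0.28% of probes, and 5 had an unadjusted p under 0.05, beside 10.9%. When Glo1+/- aorta library 3 was left out, Clec4b1 alone of the 9 was called (F = 14.21, adjusted p = 0.0096), beside 1.25% of probes, and 5 had an unadjusted p under 0.05, beside 15.1%. Clec4b1 differed by -0.55 in adipose tissue, 0.03 in liver, -0.01 in kidney and -0.01 in aorta (without Glo1+/- library 3), and it was close to the floor in the last 3. Over all 24 libraries its adjusted p was 0.427, so the call rests on leaving out that library. The second Clec4b1 probe gave F = 28.65 (adjusted p = 0.000328) and the third an adjusted p of 0.278. In aorta the second probe did not share the difference near 0 of the probe used. It read 8.71 and 8.51 in Glo1+/- libraries 1 and 2, above the 8.41, 8.36 and 8.43 in WT. For the probe used, leaving out each adipose library in turn as well gave adjusted p-values of 0.00878 to 0.0457.

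A list of 40 other macrophage genes, of which 37 had probes, gives the surroundings of the 9. Between tissues, 25 of 37 were called higher in adipose tissue than in aorta, beside 14.2% of probes, or 26 without Glo1+/- aorta library 3, beside 17.3%. Adipose tissue exceeded kidney in 24, beside 19.4% of probes, with Slc40a1, the iron exporter ferroportin, lower at -0.68 ± 0.11 (adjusted p = 3.84e-05), beside 17.3% of probes lower. Against liver 21 were higher in adipose tissue, beside 21.4% of probes, among them Gpnmb at 3.29 ± 0.27 (adjusted p = 1.02e-09), and 4 were lower, beside 19%. Those 4 were Slc40a1 and the Kupffer cell genes Clec4f at -2.06 ± 0.06 (adjusted p = 4.04e-17), Vsig4 at -1.16 ± 0.15 (adjusted p = 7.88e-07) and Marco at -0.28 ± 0.07 (adjusted p = 0.0023). Over a list of 9 Kupffer cell genes that holds these 4, 6 were called lower in adipose tissue than in liver, 2 higher and 1 neither. The 2 higher in adipose tissue were Folr2 at 1.92 ± 0.15 (adjusted p = 7.4e-10) and Fcna at 0.71 ± 0.17 (adjusted p = 0.00168), and Cd5l was close to the floor in both tissues. Clec4f marks Kupffer cells in mice and read 10.17 to 10.54 in liver and at most 8.48 elsewhere, so the liver libraries held a Kupffer cell marker at a level seen in no other tissue, while 8 of the 9 genes above were lower in liver than in adipose tissue.

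Between genotypes 0 of the 37 were called in each tissue, with 3 at an unadjusted p under 0.05 in adipose tissue, 2 in liver, 3 in kidney and 1 in aorta, where 11.4%, 11.6%, 9.54% and 3.57% of all probes had one. In adipose tissue 6 of 37 lay wholly lower, beside 9.48% of probes, and 0 wholly higher, beside 8.02%. The 6 held the 3 with the smallest p among negative differences, Itgam at -0.09 ± 0.03 (adjusted p = 0.326), Vsig4 at -0.28 ± 0.10 (adjusted p = 0.386) and Tyrobp at -0.42 ± 0.16 (adjusted p = 0.398). Itgam was close to the floor. Tyrobp encodes an adaptor that signals beside Fcer1g, and read 9.48, 9.39 and 9.54 in Glo1+/- against 9.59, 9.87 and 10.20 in WT. The positive differences with the smallest p were those of Stab1, Ms4a7 and Cd5l, the first being 0.26 ± 0.21 (adjusted p = 0.666) and the last close to the floor. The median difference of the 37 was -0.04 in adipose tissue, -0.04 in liver, -0.01 in kidney and 0.20 in aorta, or 0.05 in aorta without Glo1+/- library 3.

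In liver the negative differences with the smallest p were Stab1 at -0.29 ± 0.10 (adjusted p = 0.239), Lst1 at -0.24 ± 0.10 (adjusted p = 0.372) and Laptm5 at -0.21 ± 0.10 (adjusted p = 0.449). The positive ones were Itgam, which was close to the floor, Marco and Vsig4, at 0.07, 0.21 and 0.15. In kidney the negative ones were Lst1, C1qc and C1qb, at -0.17, -0.18 and -0.21, the last 2 being chains of complement C1q. The positive ones there were Gpnmb, Spi1 and Fcgr3, at 0.10, 0.05 and 0.06, all close to the floor. In aorta C1qa differed by 0.76 ± 0.33 (adjusted p = 0.948), or by 0.34 ± 0.12 (adjusted p = 0.592) without Glo1+/- aorta library 3, with Cd5l and Siglec1 next at 0.04 and 0.09. The negative ones in aorta were Ccr2, Cx3cr1 and Maf, at -0.04, -0.04 and -0.03. These genes, like Cd5l and Siglec1, were close to the floor in aorta.

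Genes with the pattern most like Lyz2 over 24 libraries were Lyz1 (r = 0.987), Pf4 (0.984), Ehd2 (0.983), Timp4 (0.980) and Rab3d (0.980). With each tissue's mean subtracted they were Wfdc17 (r = 0.924), Dpep2 (0.914), Ms4a8a (0.892), Ifitm6 (0.882) and Clec4d (0.878). Without Glo1+/- aorta library 3 the 5 were Wfdc17 (r = 0.831), Gnb1 (0.825), Dpep2 (0.803), Mrpl53 (0.779) and Clec4d (0.776). For Timd4 they were Rap2c (r = 0.886), Alas2 (0.876), Ulk2 (0.873), Rrp15 (0.865) and Hsd3b7 (0.853), and after subtraction Eef1g (r = 0.830), Polk (0.823), Srsf3 (0.808), Ift20 (0.803) and Armcx1 (0.797). These Pearson correlations describe 24 libraries that share slides and tissues, and Timd4 is close to the floor throughout.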

How the data were processed

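Total RNA of 4 tissues was measured on 24 Illumina bead arrays, 3 per genotype and tissue. The deposited values are log2 or log2-like intensities made by the authors with lumi 2.32.0, per the submitters' processing notes, running from 7.96 to 15.38 with array medians of 8.22 to 8.25. Background and normalization steps were not given in the sources used here, and folds of dim probes may be understated. Of 25697 probes, 23978 were annotated to 1 gene and 1719 to none. Unused per-sample columns numbered 0. The number of arrays limits the precision.

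Groups came from the sample labels. Within a tissue, the 6 arrays were fitted in R 4.3.3 using limma 3.58.1 (lmFit, then eBayes with a trend), 2-sided, with Benjamini-Hochberg adjustment over all probes. One fit of 8 group means over 24 arrays gave the average genotype effect, the interaction and the tissue contrasts, and was repeated without Glo1+/- aorta library 3. Errors after ± are limma standard errors for differences and SD for group means. Tables and figures were made in Python 3.11.15 with pandas 2.3.3, and the fits were tested on simulated data.

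The members and gene lists were chosen with earlier results of these data known. The 10 members are named in every comparison. Of the other macrophage genes the text names those called, or else the 3 with the smallest p in each tissue and direction; genes most like Lyz2 and Timd4 are the 5 with the highest r. In adipose tissue, deviations of same-numbered libraries from their group means correlated at 0.667, 0.17 and 0.336. The best match was at the same number for Glo1+/- libraries 1 and 3, but at WT library 3 for Glo1+/- library 2. Whether the numbers pair libraries there is uncertain. The main fits left libraries unpaired, and the replicate block was run as an alternative. Alternatives were the replicate block, no variance trend, a filter on dim probes, quantile normalization, array weights, slide, the mean of a gene's probes and leaving out single libraries.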

Additional observations from a re-analysis of the deposited data

Results flagged for a closer look

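The genotype difference of Clec4b1, Glo1+/- minus WT, varied between the 4 tissues in an interaction test over the 23 libraries without Glo1+/- aorta library 3 (limma adjusted p = 0.0096). It was -0.55 in adipose tissue, where all 3 Glo1+/- libraries lay below all 3 WT libraries, and the gene was close to the floor in the other tissues.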

How the results depend on the processing

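Of the 9 genes' genotype differences within tissues, recomputed under the alternatives, 439 values kept their direction and their side of the threshold, 32 reversed and 1 came past the threshold. Between tissues 397 kept both, 22 were no longer called, 8 were newly called and 5 reversed. For the average and interaction the numbers were 131 kept, 4 newly called and 9 reversed. Part of the kept values was fixed in advance. The replicate block, the fit without a trend and the filter on dim probes leave a difference unchanged, so its direction could not reverse. The interaction value is an F, which is never negative and so could not reverse under any setting. Leaving out aorta libraries does not change the differences between adipose tissue, liver and kidney. The mean of all probes changes only genes with several probes. Within liver and within kidney, slide 2 only and slide as a block give the same differences, which are counted under both settings. Over all probes, the count called in adipose tissue was 1, and became 49 with the replicate block, 0 with dim probes left out, 19 with array weights and 0 to 176 with single libraries left out, the highest without WT library 3. In liver 169 became 289 with the replicate block, 4 without a trend, 340 with array weights, 1687 on slide 2 only, 1379 with slide as a block and 22 to 695 with single libraries left out, the lowest without Glo1+/- library 3 and the highest without WT library 3. In kidney 98 became 17 without a trend, 10 on slide 2 only, 20 with slide as a block and 19 to 108 with single libraries left out, the lowest without Glo1+/- library 3. The aorta count of 0 became 349 without both libraries numbered 3. The average count of 69 became 113 without a trend, 749 without both aorta libraries numbered 3, 405 without Glo1+/- aorta library 3 and 464 without it and with slide as a block. The interaction count of 72 became 133, 534, 320 and 611 under the same settings and 138 with slide as a block alone. With slide as a block, adipose against kidney gave 4466 in place of 9450 (6110 without Glo1+/- aorta library 3), aorta against liver 4215 in place of 9858 (5851), aorta against kidney 5509 in place of 8996, and adipose against aorta 36 in place of 6984 (2676). The settings with both aorta libraries numbered 3 left out, those with slide as a block over all tissues, and the further checks of Clec4b1 were chosen after seeing the data.

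Some differences changed sign, not all of them small, since Clec4b1 in aorta was 0.48 and the Lgals3 average 0.17 in the main fits. In liver these were Lgals3 at 0.0054 and Cd14 at 0.0062 with quantile normalization, Retnla at 0.0079 and Lgals3 at 0.022 with array weights, Lyz2 at -0.061 and Clec4b1 at -0.0033 with the mean of all probes, and Lyz2 at -0.096, Clec4b1 at -0.060 and Cd163 at -0.24 both on slide 2 and with slide as a block. Clec4b1 was 0.070 in kidney under both slide settings and -0.0073 in aorta without both libraries numbered 3. The average effect without those 2 was -0.12 in Lyz2, -0.15 in Retnla and -0.023 in Lgals3, and Clec4b1 was -0.10 for aorta minus kidney. The averages without Glo1+/- aorta library 3 were -0.076, -0.12 and -0.031, with -0.092 for Clec4b1 in aorta minus kidney. With slide as a block as well they were -0.080, -0.12 and -0.043, with -0.0074 for Clec4b1, and Timd4 was 0.038 for adipose minus liver with slide as a block. Leaving out single libraries gave ranges of -0.033 to 0.031 (Retnla), -0.085 to 0.043 (Lgals3), -0.021 to 0.076 (Clec4b1), -0.0033 to 0.29 (Cd163) and -0.034 to 0.0047 (Cd14) in liver. They were -0.056 to 0.033 (Clec4b1) and -0.015 to 0.078 (Cd14) in kidney and -0.015 to 0.77 (Clec4b1) in aorta, where the lowest left out Glo1+/- library 3. The cause was not tested. The replicate block changed no call of the 9 genes. Same-numbered libraries correlated at 0.0741, 0.0511 and 0.23 in liver, 0.065, 0.0135 and -0.00749 in kidney and 0.107, -0.11 and -0.0373 in aorta, with the best match at its own number for 1 of 3 libraries in each, so the numbers were not taken to pair these libraries.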
